A study of Mus musculus with 12 samples.

Results

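Isolated acetylation peaks that had no counterpart in the Lck-Cre library were described in thymocytes, the T cell precursors of the thymus, of mice. The data are lists of ChIP-seq peaks, places where fragments pulled down by an antibody pile up over the genome. A floxed H3K9ac/K27ac peak counted as isolated when its summit lay more than 50 kb from every other summit of the same list. It was kept when it overlapped, by 1 bp or more, no Lck-Cre H3K9ac/K27ac peak and no floxed ZFAT peak. Of 13016 floxed H3K9ac/K27ac peaks, 3123 (23.99%) were isolated. An Lck-Cre acetylation peak overlapped 468 of these, and a floxed ZFAT peak overlapped a further 104. The remaining 2551 peaks, 19.6% of the list and 81.7% of its isolated peaks, are called solitary peaks here. A missing Lck-Cre call means only that no peak passed the caller's threshold there. The solitary peaks were thus chosen by measured values: the summit positions of the floxed acetylation list and the peak calls of the Lck-Cre acetylation and floxed ZFAT lists. Since their choice used the absence of an Lck-Cre call, the share without one is given as a description: it was 85.01% of isolated peaks (2655 of 3123), beside 87.7% of all floxed acetylation peaks. Absence of a floxed ZFAT peak was the common case as well, at 96.6% of all floxed acetylation peaks.

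Acetylation of histone H3 at lysines 9 and 27 marks active promoters and enhancers. Active genes of a cell type often carry several acetylated elements close together, and an acetylated element far from all others is the less usual arrangement. ZFAT is a nuclear zinc-finger protein with a known role in T cell development and survival. H3K9me3, trimethylation of the same lysine 9, marks silenced chromatin and repeats, and a single lysine cannot be acetylated and methylated at once. That exclusion concerns lysine 9 alone. The acetylation lists join the signals of lysines 9 and 27, which cannot be told apart here. Whether acetylation at an H3K9me3 peak was on lysine 9 or on lysine 27 was thus not tested.

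The floxed library came from Zfatf/f mice, in which the Zfat gene is flanked by recombination sites. The Lck-Cre library came from Zfatf/f-LckCre mice, which carry the same floxed alleles and Cre recombinase under the T-lineage promoter of Lck; deletion of Zfat was not measured in these lists, and any cells that escape it cannot be told apart. B6 mice (C57BL/6) served for 2 further ZFAT lists made from 1 library. All mice were 4 to 5 weeks old, and each group held 1 library, so every comparison is between libraries and no test between conditions is possible. Gene positions in mm9, the build of all coordinates here, were not used, so neither the genes beside the peaks nor the thymocyte identity of the cells was checked.

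Positions, folds (ChIP over local control) and P scores came from the authors' peak caller. The P score is −log10 of its p. From fold and P score together, the number of ChIP fragments at the summit (the pileup) and the scaled control level there (the background) were inferred for all 2551 solitary peaks. The lowest backgrounds of the 2 acetylation lists implied about 2190000 floxed and 1340000 Lck-Cre fragments, a ratio of 0.613.

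The solitary peaks were neither uniformly weak nor uniformly narrow. Their length had a median of 320 bp, with quartiles of 190.5 and 507 bp and a range of 153 to 1982 bp, against a median of 290 bp for all floxed acetylation peaks. Their pileup had a median of 40 fragments, with quartiles of 21 and 58 and a range of 4 to 135, against a median of 38 for the whole list. The solitary peaks therefore had sizes typical of the floxed list. Their fold had a median of 7.98, against 8.62 for all floxed acetylation peaks, and their P score a median of 25.7, against 25.9. The 468 isolated peaks with an Lck-Cre peak were larger and stronger. They had medians of 575 bp, 73 fragments, a fold of 12.4 and a P score of 57.5. The 8498 floxed peaks that also lacked both an Lck-Cre and a ZFAT peak but had a neighbour within 50 kb, called neighboured peaks here, were shorter, with a median of 246 bp, and lower, with a median pileup of 32.

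Length and pileup divided the solitary peaks along a gradient. The 741 peaks of 200 bp or less, close to the 150 bp fragment length assumed by the caller, had a median of 15 fragments at the summit over a background of 1.35. The 654 peaks of more than 500 bp had a median pileup of 56 over a background of 4.74. Between these extremes lay 457 peaks of over 200 to 300 bp with a median pileup of 33, and 699 of over 300 to 500 bp with a median of 46. Longer peaks thus held more ChIP fragments and also lay where the control was higher.

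The control level itself came in steps. At 2048 of the 2551 solitary peaks (80.3%), the background was a whole multiple of 0.677 within 0.001 of a step, which is what 1 control fragment would be worth after scaling. Read this way, these 2048 summits held between 1 and 22 control fragments, with a median of 7. A further 199 peaks (7.80%) lay at the lowest background of the list, 0.176, where the caller fell back on the genome average. Peaks at that lowest level made up 21.3% of the solitary peaks of 200 bp or less. At that length the shares were 11.6% of all floxed acetylation peaks and 9.20% of neighboured peaks. Over 500 bp they made up none of the solitary peaks (0 of 654), beside 0.210% of all and 0.387% of neighboured peaks. No solitary peak had a background of 20 or more, the highest being 14.9.

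**Figure D1:**
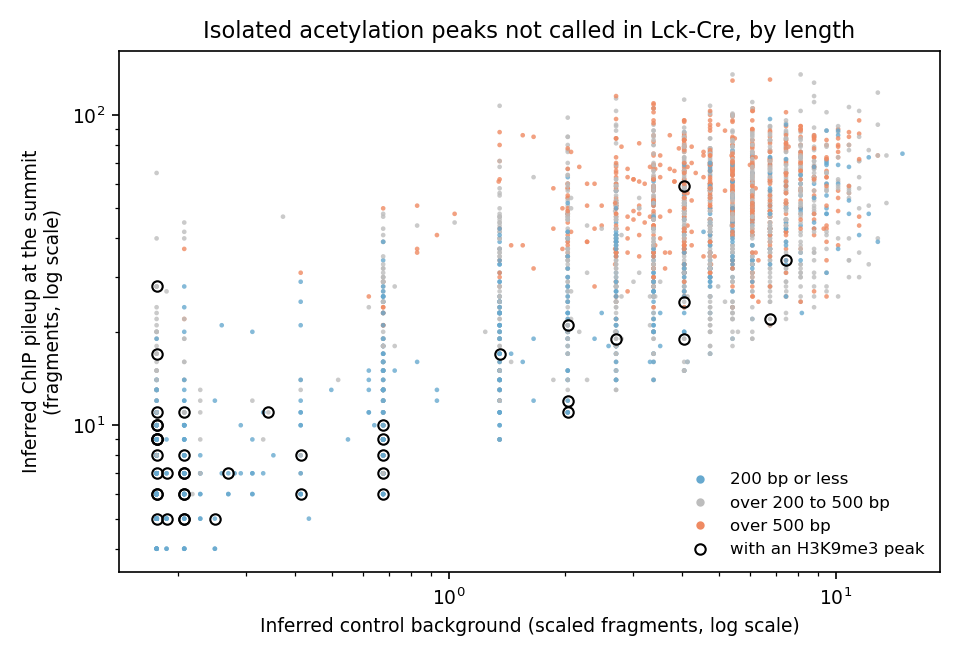
Each point is 1 of the 2551 solitary peaks, with the inferred control background on the horizontal axis and the inferred ChIP pileup at the summit on the vertical axis, both on log scales; colour gives the peak length and open circles mark the 43 peaks with an overlapping H3K9me3 peak. The vertical stripes are steps of 0.677 in the background, most long peaks lie to the upper right, and most open circles lie at the lower left.

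Isolation was set beside strength, since strong floxed peaks were called in Lck-Cre more often than weak ones. In the lowest decile of floxed P score, 97.9% of isolated peaks (321 of 328) had no Lck-Cre peak, against 98.2% of the not isolated peaks (956 of 974). In the fifth decile the shares were 95.4% and 95.3%. In the highest decile they were 51.1% (185 of 362, 95% interval 45.8% to 56.4%) and 55.9% (525 of 940, 52.6% to 59.1%). Strong peaks in both sets thus lacked an Lck-Cre call less often than weak ones, as a description of calls that the choice of solitary peaks used. Over all deciles the share was 85.01% of isolated peaks (83.7% to 86.2%) and 88.6% of the 9893 not isolated peaks (87.9% to 89.2%). The largest gaps were in the seventh decile, at 85.5% against 90.6%, and in the eighth, at 77.8% against 83.2%, and the intervals of the 2 sets overlapped in both deciles. Percent intervals throughout are exact Clopper-Pearson intervals and cover counting error only.

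**Figure D2:**
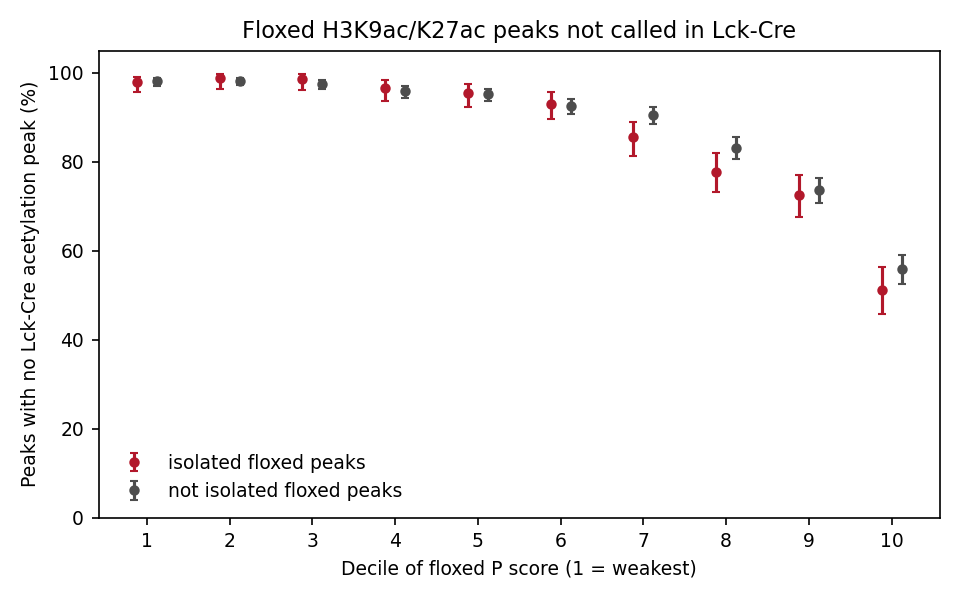
The share of floxed acetylation peaks without an overlapping Lck-Cre acetylation peak is plotted for each decile of floxed P score, for 3123 isolated and 9893 not isolated peaks, with exact 95% binomial intervals. Both series stay above 90% in the lower 6 deciles and fall to 51.1% and 55.9% in the highest.

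The strongest solitary peaks were large. The first by P score lay at chr11:26493336-26493828, with a pileup of 107 fragments (Poisson 95% interval 87.7 to 129), a fold of 45.9 and a control level of 2 fragments. The second, at chr5:138882754-138883119, had a pileup of 65 (50.2 to 82.8) at the lowest background of the list and the highest fold of the solitary peaks, 56.1. The highest pileup was that of the fifth, at chr1:93076423-93076847, with 135 fragments (113 to 159.8) and a fold of 21.2. Strength in this ranking came from many ChIP fragments in the case of chromosome 1 and from an almost empty control in the case of chromosome 5.

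The others of the first 10 were as follows. The peaks at chr13:41345249-41345790 and chr18:5334092-5334335 had pileups of 115 and 113 and folds of 31.3 and 30.7. Those at chr19:41337864-41338802 and chr4:6292785-6293064 had pileups of 129 and 98 and folds of 20.3 and 32.7. Those at chr12:71926497-71927103, chr6:18798684-18798940 and chr5:105844404-105845276 had pileups of 88, 103 and 109 and folds of 37.8, 28.05 and 25.1. None of the 10 overlapped an H3K9me3 peak or a B6 ZFAT peak, beside 0.807% and, for either B6 list, 3.33% of all floxed acetylation peaks. At shares this low, few overlaps could be found among 10 peaks. Their nearest Lck-Cre acetylation peak lay between 87.8 and 3127 kb away, and the nearest neighbouring floxed summit between 52.8 and 1154 kb. The greatest of these summit distances was that of the peak on chromosome 6 and the least that of the peak on chromosome 12.

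How far a missing Lck-Cre call bounds the signal was estimated from the caller's own threshold. For each solitary peak the floxed background was scaled by the ratio of depths, and the highest pileup that would still miss a P score of 5 was computed. For the first 10 peaks this limit was 2 to 13 fragments, where the floxed pileup scaled to Lck-Cre depth was 39.8 to 82.7, a ratio of 6.08 to 19.9. Over all 2551 solitary peaks the scaled pileup exceeded the limit in 2487 (97.5%), with a median ratio of 2.40 and quartiles of 1.73 and 3.27. It was more than 5 times the limit in 139, and at or under it in 64. For those 64 peaks the inferred depth alone would put the summit at or under the threshold.

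The same scale was read in the 468 isolated peaks that were called in Lck-Cre. Their Lck-Cre pileup, with a median of 21 fragments, was 0.486 times the scaled floxed pileup at the median, with quartiles of 0.415 and 0.573, and it was under 1 in 458 of 468. Isolated peaks present in both lists were therefore also lower in the Lck-Cre list than the ratio of depths gives. These peaks could enter the list only by passing the threshold, so the median is that of a selected group. Among the solitary peaks, the limit lay at or under that median of 0.486 in 1597 (62.6%) and above it in 954. At the 954, a peak with the median ratio would not have been called.

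The 5 strongest isolated peaks with an Lck-Cre peak are given beside them as a description. At chr1:167637871-167638319 the floxed pileup was 157 and the Lck-Cre pileup 38, with folds of 24.6 and 7.31. At chr19:32182434-32182705 the pileups were 137 and 43, at chr15:81415872-81416998 they were 142 and 35. At chr9:58430150-58430691 they were 142 and 26, and at chr6:8459435-8460432 they were 114 and 33. These pileups were not scaled to depth. Scaled to Lck-Cre depth, the floxed pileups of the 5 were 96.2, 84.0, 87.04, 87.04 and 69.9, in the order given. The unscaled floxed pileups of the 5, 114 to 157, overlapped those of the 10 strongest solitary peaks, 65 to 135. The whole sets differed more. The floxed pileup had a median of 73 (quartiles 60 and 89) at the 468 and of 40 (21 and 58) at solitary peaks. That a peak was called in Lck-Cre, or was not, is what placed it in either set. The limit rests on the Lck-Cre control following the floxed control. At the 468 recurring peaks the Lck-Cre background was 1.16 times the scaled floxed one at the median, with quartiles of 0.813 and 1.66, and 20 of them had been called at a pileup at or under their limit. The part of depth, control and enrichment in the missing calls was not tested, since each group has 1 library.

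**Figure D3:**
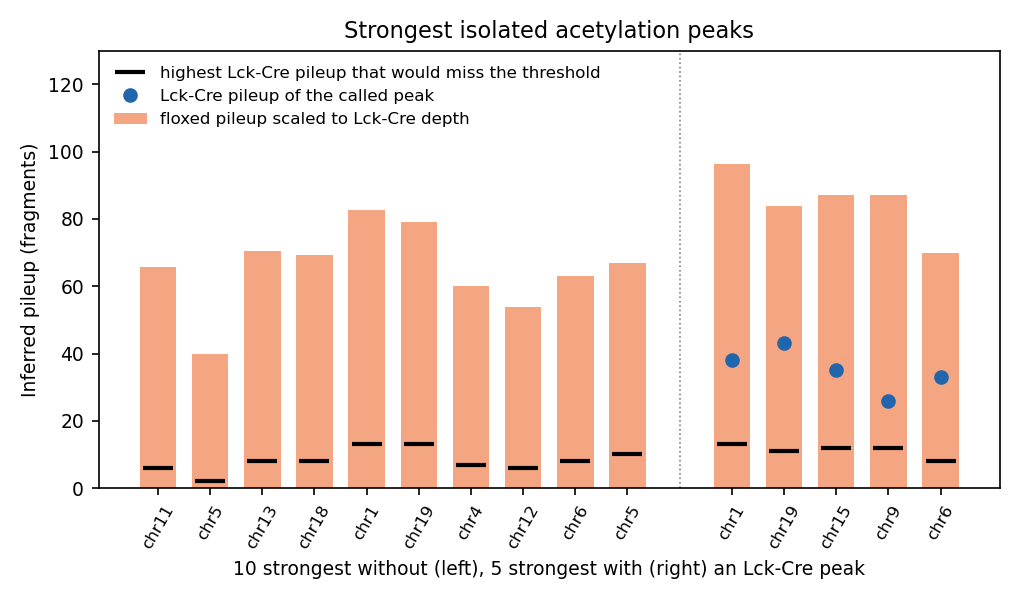
Bars give the floxed pileup scaled to the inferred Lck-Cre depth, in fragments, for the 10 strongest solitary peaks (left) and the 5 strongest isolated peaks with an Lck-Cre peak (right), labelled by chromosome; black dashes mark the highest Lck-Cre pileup that would miss the threshold and blue points the pileup of the called Lck-Cre peak. On the left the bars reach 39.8 to 82.7 over limits of 2 to 13, and on the right the Lck-Cre pileups of 26 to 43 lie between limit and bar.

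The Lck-Cre acetylation list around the solitary peaks is given as a description, since the rule bears on it. An Lck-Cre acetylation peak lay within 50 kb of 86 solitary peaks (3.37%, 2.71% to 4.15%), beside 34.4% of all floxed acetylation peaks, direct overlaps included, and 31.8% of the neighboured ones. The rule allows no other floxed summit within 50 kb, so few Lck-Cre peaks shared with the floxed list can lie there. Of the 86 Lck-Cre peaks found, 84 had no floxed counterpart, and these had a median pileup of 5 fragments and a highest of 30. In the whole Lck-Cre list, 556 of 2225 peaks had none, and the median pileup of all 2225 was 18. The median distance to the nearest Lck-Cre acetylation peak was 342 kb, against 113 kb for all floxed acetylation peaks. Beside 15.0% of all floxed acetylation peaks, overlaps included, 2 solitary peaks had one within 1 kb, at chr7:146575051-146575414 (475 bp away) and chr11:68781220-68781391 (945 bp away), named after their values were seen.

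ZFAT in B6 thymocytes was not used to choose the peaks. A B6 ZFAT peak called against input overlapped 80 of the 2551 solitary peaks (3.14%, 2.49% to 3.89%), beside 2.96% of all floxed acetylation peaks, of which those at floxed ZFAT peaks are a part. Among the neighboured peaks, which lack a floxed ZFAT peak by the same rule, the share was 1.85% (157 of 8498, 1.57% to 2.16%). The share of solitary peaks was thus close to that of all floxed peaks, and its interval lay above that of neighboured peaks. Isolated peaks with an Lck-Cre peak, some of which have a floxed ZFAT peak, stood higher at 5.77% (27 of 468, 3.84% to 8.28%). With the B6 list called against IgG the shares were 0.510% (13 of 2551, 0.272% to 0.870%) and 0.471% (40 of 8498, 0.336% to 0.640%), beside 1.04% of all floxed acetylation peaks and 2.14% (10 of 468) of isolated peaks with an Lck-Cre peak. The intervals of solitary and neighboured peaks overlapped with this list. A B6 peak of both lists lay at 5 solitary peaks (0.196%), beside 0.661% of all floxed acetylation peaks and 0.118% of neighboured ones.

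The shares with input were also read by peak length. For peaks of 200 bp or less the shares were 4.05% of solitary peaks (30 of 741, 2.75% to 5.73%) and 1.62% of neighboured ones (51 of 3151, 1.21% to 2.12%). For peaks of over 200 to 300 bp they were 1.75% and 1.61%. For peaks of over 300 to 500 bp they were 3.72% (26 of 699, 2.44% to 5.40%) and 2.15% (46 of 2136, 1.58% to 2.86%), with intervals that overlapped. At more than 500 bp they were 2.45% and 2.25%, with intervals that overlapped as well. Among all floxed acetylation peaks, those at floxed ZFAT peaks included, the shares were 2.32%, 2.29%, 3.31% and 4.05%, from the shortest class to the longest. The intervals of solitary and neighboured peaks were thus separate only in the shortest class. This is a description without a test, and overlapping intervals do not show that shares are equal. At P scores of 20 or more the shares were 2.65% (1.91% to 3.58%) and 1.77% (1.41% to 2.20%), again overlapping. Counted within 1 kb rather than by overlap, where all floxed acetylation peaks stood at 3.75%, the 2 shares were 3.33% (2.67% to 4.10%) and 2.79% (2.45% to 3.16%), and their intervals overlapped. Within 1 kb and at P scores of 20 or more solitary peaks did not stand above neighboured ones. The shares were 2.65% (1.91% to 3.58%) and 2.77% (2.32% to 3.28%), with intervals that overlapped. The B6 peaks at solitary peaks rested on few fragments, with a median pileup of 8, where all B6 peaks called against input had a median of 6.

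The 5 strongest solitary peaks with a B6 ZFAT peak were all in the list called against input and in none called against IgG. At chr10:110446594-110447597 the acetylation pileup was 97 (78.7 to 118) and the B6 ZFAT pileup 14, with a ZFAT fold of 4.64. At chr14:122277883-122278416 they were 102 and 11, and at chr12:100801595-100802080 they were 81 and 12. At chr12:60231775-60232776 they were 83 and 15, with the highest ZFAT fold of the 5, 7.50, and at chr9:72379740-72380809 they were 74 and 15. High acetylation at these sites thus met ZFAT signals of 11 to 15 fragments.

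Floxed ZFAT peaks near the solitary peaks are a description too, since the rule removed peaks that overlap one and kept peaks from sparsely acetylated stretches. One lay within 50 kb of 154 solitary peaks (6.04%, 5.14% to 7.03%) and of 16.9% of neighboured peaks (1433 of 8498, 16.1% to 17.7%), beside 17.0% of all floxed acetylation peaks and 11.8% of isolated peaks with an Lck-Cre peak. Within 1 kb it was 6 and 83 peaks, or 0.235% and 0.977%, beside 4.20% of all. The 6 were named after their values were seen. The nearest lay 82 bp from the peak at chr8:23816750-23816985 (pileup 30), and the highest acetylation P score of the 6, 40.3, was that of chr15:81353413-81353950 (pileup 37, 612 bp away). The other four were at chr6:142335820-142336150, chr14:68334245-68334600, chr13:74146582-74146734 and chr10:94407781-94408146, at 280, 789, 302 and 243 bp. No Lck-Cre ZFAT peak overlapped a solitary peak (0 of 2551, which allows up to 0.118% by 3 counts of the total, and 0.145% as the exact upper bound). None overlapped a neighboured peak either (0 of 8498), beside 0.154% of all floxed acetylation peaks, and the Lck-Cre ZFAT list holds 108 peaks. The rule bears on these counts too. An Lck-Cre ZFAT peak overlapped 4 of the 104 isolated peaks (3.85%) that were set aside for a floxed ZFAT peak.

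H3K9me3 was the other mark that the choice did not use. An H3K9me3 peak of the floxed library overlapped 43 solitary peaks (1.69%, 1.22% to 2.26%), beside 0.807% of all floxed acetylation peaks. The share was 0.683% of neighboured peaks (58 of 8498, 0.519% to 0.881%) and 0.214% of isolated peaks with an Lck-Cre peak (1 of 468, 0.00541% to 1.18%). The intervals of solitary and neighboured peaks did not overlap. Only 32 of the 468 isolated peaks with an Lck-Cre peak were of 200 bp or less. At that length an H3K9me3 peak overlapped 1 of these 32 (3.13%, 0.0791% to 16.2%) and 29 of 741 solitary peaks (3.91%, 2.64% to 5.57%), beside 1.64% of all floxed acetylation peaks. In the wider surroundings solitary peaks stood below neighboured ones: an H3K9me3 peak lay within 50 kb of 7.13% of solitary peaks (182 of 2551, 6.17% to 8.20%) and of 9.37% of neighboured ones (796 of 8498, 8.76% to 10.01%), beside 8.27% of all floxed acetylation peaks. It was 2.35% (11 of 468) of isolated peaks with an Lck-Cre peak.

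The overlap with H3K9me3 was concentrated in the smallest solitary peaks. The 43 peaks had a median length of 178 bp and a median pileup of 9 fragments, against 326 bp and 40 for the 2424 solitary peaks with neither an H3K9me3 nor a B6 ZFAT peak. Of the 43, 28 had a pileup of 10 or less and 13 lay at the lowest background. Among solitary peaks with a pileup of 10 or less, 8.97% (28 of 312, 6.05% to 12.7%) carried H3K9me3, against 2.60% of neighboured peaks (26 of 1000, 1.71% to 3.79%). At a pileup of 11 or more the shares were 0.670% (15 of 2239, 0.375% to 1.10%) and 0.427% (32 of 7498, 0.292% to 0.602%), with overlapping intervals. At a P score of 20 or more they were 0.194% (3 of 1545) and 0.130% (6 of 4621). By fragment count, the intervals of solitary and neighboured peaks were thus separate for pileups of 10 or less and overlapped above. By length, the shares were 3.91% and 1.11% at 200 bp or less and 1.09% and 0.833% at over 200 to 300 bp. All floxed acetylation peaks stood at 1.64% and 0.840% in these classes. At over 300 to 500 bp solitary peaks stood at 1.29% (9 of 699, 0.590% to 2.43%) and neighboured ones at 0.187% (4 of 2136, 0.0510% to 0.479%), with separate intervals. All floxed acetylation peaks of that length stood at 0.378%. The median pileup of 46 among solitary peaks there is a value of the whole class, not of the 9. At any length, only 3 solitary peaks with H3K9me3 had a P score of 20 or more. Above 500 bp the shares were 0 of 654 solitary and 3 of 1291 neighboured peaks, beside 0.105% of all.

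The summits of both marks were within 150 bp of each other at 38 of the 43 peaks. The acetylation and H3K9me3 summits of the 43 peaks were a median of 22 bp apart, a closeness that choosing short peaks by overlap largely fixes. The H3K9me3 peaks there had a median pileup of 10 fragments, while all H3K9me3 peaks had a median of 14. The strongest solitary peak with H3K9me3, at chr8:85766476-85766743, had an acetylation pileup of 28 (18.6 to 40.5) and an H3K9me3 pileup of 12. At chr8:19892494-19892900 the pileups were 59 and 21, at chr14:119405772-119406084 they were 17 and 7. At chr17:40750038-40750220 and chr7:144445205-144445391 they were 11 and 20 in both cases. At this last pair the H3K9me3 summit held the more fragments, counts that were not scaled between the libraries. H3K9me3 and B6 ZFAT, from either of its lists, were both called at 4 solitary peaks, beside 0.0615% of all floxed acetylation peaks. Which lysine carried the acetylation at these peaks was not tested, nor whether both histone marks lay on the same cells or alleles.

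**Figure D4:**
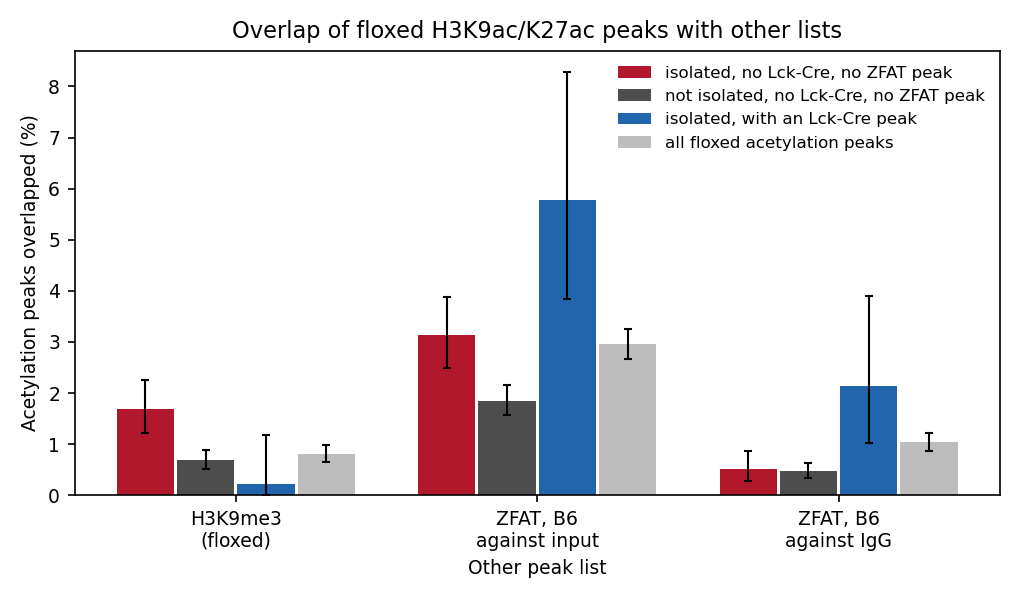
Bars give the percent of floxed acetylation peaks overlapped by a peak of the H3K9me3 list and of the 2 B6 ZFAT lists, for the 2551 solitary peaks, the 8498 neighboured peaks, the 468 isolated peaks with an Lck-Cre peak and all 13016 peaks, with exact 95% binomial intervals. Solitary peaks stand at 1.69% for H3K9me3 and 3.14% for ZFAT against input, above the 0.683% and 1.85% of neighboured peaks, and at 0.510% against 0.471% for ZFAT against IgG.

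The number of solitary peaks per Mb varied less between chromosomes than their share of all peaks. Their density was 0.822 to 1.38 per Mb of spanned sequence on the autosomes and 0.577 on chromosome X. As a share of a chromosome's floxed acetylation peaks they ranged from 10.1% on chromosome 11 (125 of 1240, 8.46% to 11.9%), which had 10.5 floxed peaks per Mb, to 39.8% on chromosome X (94 of 236, 33.5% to 46.4%), which had 1.45. The share thus followed how thinly acetylation peaks were spread, which the rule itself uses. The pileup of solitary peaks had a median of 26.5 fragments on chromosome X, under the autosomal range of 35 to 45.5. The sex of the animals is not given in the labels, so the number of X chromosomes behind that value is unknown.

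**Figure D5:**
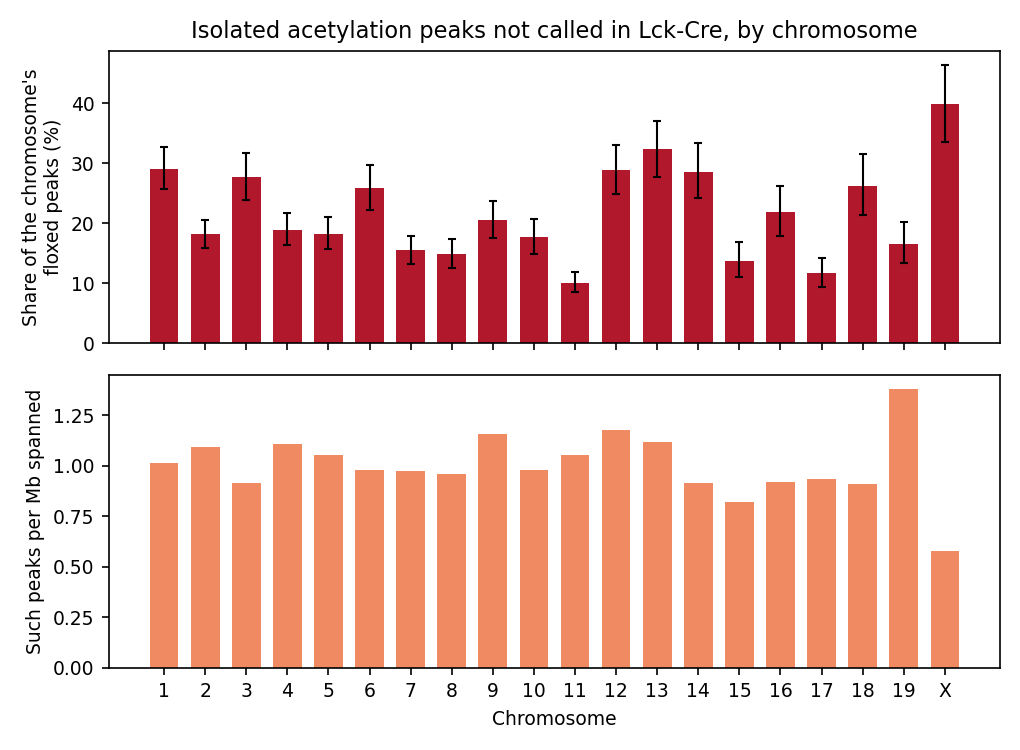
The upper panel gives solitary peaks as a percent of all floxed acetylation peaks of each chromosome, with exact 95% binomial intervals, and the lower panel their number per Mb between the first and last peak of any list. The share runs from 10.1% on chromosome 11 to 39.8% on chromosome X, while the density is lowest on chromosome X at 0.577 per Mb.

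Some solitary peaks stood in very large empty stretches. The most isolated, at chrX:82819354-82819720, was 7778 kb from the next floxed acetylation summit and had a pileup of 44 fragments. The next, at chr17:95149221-95149403, was 6124 kb away with a pileup of 17, and the third, at chr16:70314100-70314873, was 4751 kb away with a pileup of 79. The lowest of these 3 pileups lay under the lower quartile of all solitary peaks, 21, and the highest above the upper quartile, 58. The longest solitary peaks, at chr13:17895167-17897148, chr1:13362821-13364777 and chr5:43624164-43626054, spanned 1982, 1957 and 1891 bp with pileups of 66, 80 and 36.

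The peaks nearest to the limit of 50 kb were as follows. Just inside it lay a pair of neighbours on chromosome 1, chr1:9787919-9788614 (pileup 35) and chr1:9838439-9838629 (pileup 62), whose summits were 50023 bp apart, and chr4:42962766-42963108 (pileup 68) at 50065 bp. Just outside lay chr2:71575541-71575708 (pileup 6) at 49952 bp, chr6:71494075-71494460 (pileup 102) at 49913 bp and chr3:116364834-116365327 (pileup 65) at 49882 bp.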

How the data were processed

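The series holds 12 samples, 6 of them ChIP libraries with 7 deposited peak lists and 6 input or IgG samples not analysed here. Chromatin crosslinked for 10 min in 1% formaldehyde was cut by micrococcal nuclease (375 units) and sonication, per the labels. Per the submitters' processing notes, CASAVA 1.8.1, Trimmomatic 0.22, SAMtools 0.1.18 and, for B6, MACS were used on mm9. Which aligner they ran, the sources used here do not give. Peaks were called per library at p 1e-05, for fragments of 150 bp, against a dynamic local background, per the file headers, which name a control for B6 alone. The P score and the Q score deposited by the authors are −log10 values, and the fold change deposited by the authors is a ratio of ChIP to local background. The Q score was not used.

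Positions were taken as 1-based and closed, and overlap meant at least 1 bp. A pileup and a background were solved from fold = (pileup + 1)/(background + 1) and the Poisson tail above the pileup, within 0.0001 of the P score; a single whole pileup was found for all 13016 floxed and 2225 Lck-Cre acetylation peaks. Depth is inferred from the lowest background and the effective genome size of 1870000000 in the headers. Folds and scores describe peaks within a list. Ratios between pileups of the acetylation lists were taken after scaling to depth. Unscaled pileups of the strongest isolated peaks with an Lck-Cre peak are printed as well. With 1 library per group no test was made. Overlap code was checked against bedtools 2.31.1, and the pileup solution was tested on simulated data. Python 3.11.15, scipy 1.17.1 and pandas 2.3.3 were used. Duplicate reads, where kept, make counting intervals too narrow.

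The peaks, groups and rules were chosen with earlier results of these data known. Named peaks were those with the highest P score (10), the longest, the most isolated and those on either side of 50 kb (3 each), and the strongest 5 with H3K9me3, with B6 ZFAT and with an Lck-Cre peak. Gene annotation and sequence of mm9 were not used here, so the planned gene lists and distances to gene starts were not analysed. Alternatives changed the isolation distance, the overlap and the P score.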

Additional observations from a re-analysis of the deposited data

How the results depend on the processing

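Of 50 alternatives to 7 results, 34 kept the value, a count within 1.5 times the first or a percent or median within its 95% interval. Among those kept, leaving out backgrounds of 20 or more could not change the count, since no solitary peak had one. Keeping the standard chromosomes alone left the count at 2551 as well. The 7 results are single counts, shares and medians, with no direction to reverse. Within 1 kb at P scores of 20 or more, solitary peaks did not stand above neighboured ones. For B6 ZFAT against input the shares were 2.65% (41 of 1545, 1.91% to 3.58%) and 2.77% (128 of 4621, 2.32% to 3.28%). For H3K9me3 they were nearly equal, at 0.194% (3 of 1545) and 0.195% (9 of 4621). The intervals overlapped for both lists. The number of solitary peaks, 2551, became 4038 at an isolation distance of 25 kb, 1278 at 100 kb and 1545 at P scores of 20 or more. At that score the share of isolated peaks without an Lck-Cre peak was 78.5%, the H3K9me3 share 0.194%, the median length 393 bp and the median pileup 54. The share without an Lck-Cre peak was 92.3% when at least 0.5 of the floxed peak's length had to be covered, and the B6 ZFAT share was then 2.08%. The H3K9me3 share was 0.823% with H3K9me3 peaks at P scores of 10 or more and 0.670% for pileups of 11 or more, the latter setting chosen after seeing the data. The B6 ZFAT share was 0.510% with the list called against IgG. The share with an Lck-Cre peak within 50 kb was 10.6% at 25 kb isolation and 2.03% at 100 kb, and with windows of 10 and 100 kb it was 0.510% and 16.3%. The cause of these shifts was not tested. Distances to gene starts were not run. No paired analysis was possible because each ChIP group holds 1 library. By the inferred depth alone, 64 solitary peaks scale to or under the Lck-Cre threshold.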

Other observations

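Taken along the chromosomes, consecutive floxed acetylation peaks that were all solitary formed 1339 runs, and 720 of them were a single peak. There were 71 runs of 5 or more, holding 432 of the 2551 peaks, and the isolation rule itself favours neighbours that are both isolated. The 3 longest runs were picked after their values were seen. The first, on chromosome X from 50097510 to 56387941, held 12 solitary peaks over 6.29 Mb, with pileups of 7 to 49, and no Lck-Cre acetylation peak. It contained 5 H3K9me3 peaks, 1 floxed ZFAT peak and 2 B6 ZFAT peaks called against input. The next, on chromosome 3 from 100292928 to 101516940, held 10 over 1.22 Mb, with pileups of 8 to 102. It contained 2 Lck-Cre acetylation peaks, 1 B6 ZFAT peak called against input and no floxed ZFAT or H3K9me3 peak. A run of 9 on chromosome 12, from 17273435 to 21117804, shared 3.84 Mb with 29 H3K9me3 peaks and 6 B6 ZFAT peaks called against input, and its own pileups ranged from 12 to 76. That run contained 1 floxed ZFAT peak and no Lck-Cre acetylation peak. The whole lists hold 2388 H3K9me3 peaks and 2000 B6 ZFAT peaks called against input.

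Peaks of acetylation, H3K9me3 and B6 ZFAT met at 4 solitary peaks, beside 8 of all 13016 floxed acetylation peaks (0.0615%) and 4 of 8498 neighboured ones. The 4 were also picked after their values were seen. At chr11:3027492-3027649 the inferred pileups were 34, 31 and 25 in the 3 libraries, over an acetylation control level of 11 fragments, and an Lck-Cre acetylation peak lay 4365 bp away. At chr6:83576913-83577346, chr17:64472049-64472201 and chr17:78926364-78926532 the acetylation pileups were 8, 5 and 5 and the H3K9me3 pileups 9, 4 and 6. The B6 pileups there were 7, 7 and 6 against input, and both chromosome 17 sites were also in the list called against IgG.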
